A study of Sus scrofa with 28 samples.

Results

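The 14 libraries described here are the 7 of high fat and the 7 of low fat pigs that carry the number 200 in their labels, out of 28 libraries in the series. They were taken by their group label, and they hold 62190 listed peaks of open chromatin in liver, of 84192 peaks over all libraries. All animals were female Zlotnicka White pigs, a native Polish breed, aged 180 days and slaughtered at about 100 kg under one feeding and housing regime, so high or low fat content is the stated difference between the groups. The labels do not say which fat depot or measure defined the groups, nor what the number 200 stands for, and they file the fat groups under a tag named shear force. All 14 libraries carry the same sequencing lane tag. The labels give each library a replicate number but do not state that each came from a separate animal, so the p-values measure the spread between libraries.

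ATAC-seq reads open chromatin through a transposase that cuts accessible DNA and leaves sequencing adapters behind. Liver, whose main cell is the hepatocyte, makes fatty acids from carbohydrate, packs them into triglycerides and lipoproteins and burns them in mitochondria, and its promoters and enhancers lie in such accessible stretches. In a whole piece of liver, fewer cells of a type and less accessible chromatin per cell cannot be told apart. The readout used here is whether a library's deposited list holds a peak at a place. A place that is not listed may be closed or too thinly sequenced, and sequencing depth is unknown.

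The number of listed peaks differed far more within each fat group than between the groups. The high fat libraries held 17652, 320, 6288, 1610, 1137, 205 and 11943 peaks for replicates 1 to 7. The low fat libraries held 8221, 196, 635, 2467, 617, 4208 and 6691. The groups thus overlapped from 205 to 8221 peaks, and only high fat replicates 1 and 7 lay above the low fat range. On the log10 scale the mean was 3.31 ± 0.755 (SD, n = 7) in high fat and 3.23 ± 0.614 (SD, n = 7) in low fat, a difference of 0.0800 (exact permutation p = 0.829, two-sided). The high fat libraries gave 39155 of the peaks (63.0%), and replicates 1 and 7 supplied most of them. The running numbers in each library's peak names skip values, and the reason for the skipped numbers is not given in the labels or file headers. The listed share of the highest number was 5.67% to 36.1% in high fat and 3.52% to 35.0% in low fat.

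In low fat libraries more of the listed peaks lay at gene ends, and in high fat libraries more of them were found in no other library, among libraries with at least 1000 peaks. Over all 14 libraries neither difference passed. A gene end here is either annotated end of a gene, and a peak counts as lying there when its centre is within 1000 bp; the annotation used gives no strand, so start and end sites are pooled. The share at gene ends was 39.3%, 28.4%, 23.9%, 41.4%, 43.7%, 10.2% and 49.9% in high fat replicates 1 to 7. In low fat replicates 1 to 7 it was 57.5%, 5.10%, 60.3%, 72.0%, 41.0%, 61.4% and 57.2%. Of these low fat values 5 lay above every high fat value, while low fat replicate 2, with 196 peaks, had the lowest value of all. Over all 14 libraries the means were 33.8% ± 13.7 (SD, n = 7) and 50.6% ± 22.1 (SD, n = 7), and the difference of −16.8 percentage points did not pass (exact permutation p = 0.112, two-sided, adjusted p = 0.188 over 5 measures). Without low fat replicate 2 the difference was −24.4 points (exact permutation, adjusted p = 0.0233), so that 1 library decided the call.

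**Figure D1:**
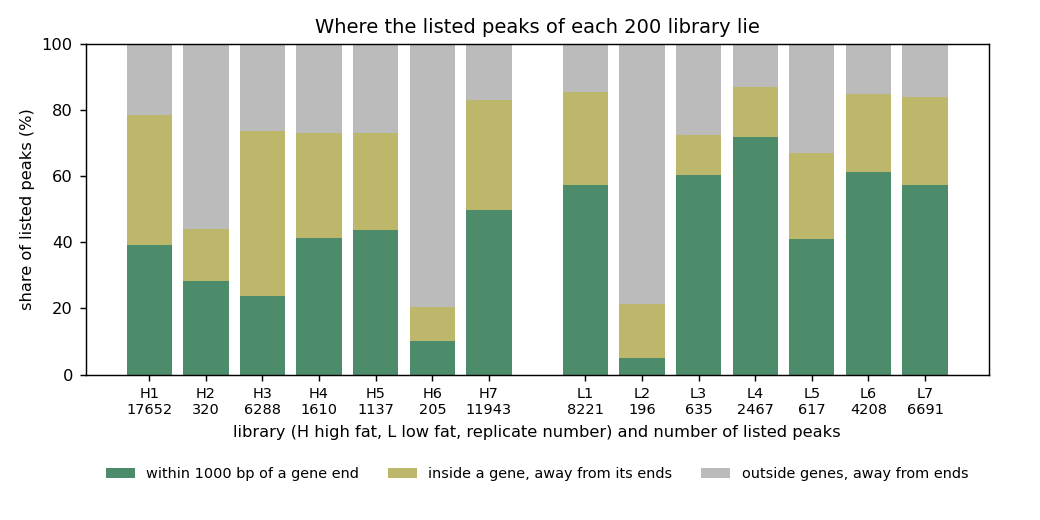
Share of listed peaks (vertical axis, %) by place for each of the 14 libraries, with the number of listed peaks under each name. The 2 smallest libraries, high fat replicate 6 and low fat replicate 2, are mostly peaks outside genes, and low fat replicates 1, 3, 4, 6 and 7 have the most peaks at gene ends.

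Among libraries with at least 1000 peaks the fat groups did not overlap in this share. This limit was set with the data known. It left high fat replicates 1, 3, 4, 5 and 7, with 1137 to 17652 peaks, and low fat replicates 1, 4, 6 and 7, with 2467 to 8221. Low fat replicate 5, with 617 peaks and a share of 41.0%, was left out by the limit and lay within the range of these high fat libraries. The share at gene ends was 23.9% to 49.9% in the 5 high fat libraries and 57.2% to 72.0% in the 4 low fat libraries, with means of 39.7% ± 9.66 (SD, n = 5) and 62.0% ± 6.91 (SD, n = 4). The difference of −22.4 points had an exact permutation p of 0.0159 (two-sided, adjusted p = 0.0397 over 5 measures, smallest possible p 0.00794). Leaving out 1 of these 9 libraries at a time kept the difference between −24.9 and −18.4 points. The adjusted p from the exact permutation test then ran from 0.0446 to 0.0893 and stayed under 0.05 only without high fat replicate 7 or low fat replicate 1. When each of the 9 was reduced to its 1000 strongest peaks by deposited −log10 p, the difference was −17.1 points (exact permutation p = 0.167, adjusted p = 0.333). With the 196 strongest peaks of all 14 libraries, the number in the smallest, it was −7.43 points (exact permutation p = 0.622, adjusted p = 0.953).

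Peaks of the larger high fat libraries recurred less in other libraries, while over all 14 libraries the difference did not pass after adjustment. Of the peaks of high fat replicates 1 to 7, 42.7%, 10.9%, 69.9%, 36.2%, 31.2%, 11.2% and 22.5% lay in regions that no other of the 14 libraries listed. For low fat replicates 1 to 7 the shares were 11.7%, 16.8%, 2.52%, 3.93%, 24.6%, 7.53% and 5.02%. High fat replicate 3 stood at the top and low fat replicate 3 at the bottom, and low fat replicates 1, 2 and 5 were the low fat libraries that reached into the high fat range. The means were 32.1% ± 20.6 (SD, n = 7) and 10.3% ± 8.03 (SD, n = 7), a difference of 21.8 points (exact permutation p = 0.0140, two-sided, adjusted p = 0.0699). Without high fat replicate 2, 6 or 7 or low fat replicate 2 the exact permutation gave an adjusted p of 0.0321, 0.0291, 0.0452 and 0.0437. In libraries with at least 1000 peaks they were 40.5% ± 18.0 (SD, n = 5) and 7.04% ± 3.43 (SD, n = 4), with no overlap (exact permutation p = 0.0159, adjusted p = 0.0397). That limit left out low fat replicate 5, whose 24.6% lay within the range of the 5 larger high fat libraries. Leaving out 1 of these 9 gave an adjusted p of 0.0446 to 0.0893 by the exact permutation test, under 0.05 only without high fat replicate 7 or low fat replicate 1. With the 1000 strongest peaks of each of the 9 the difference was 21.7 points (exact permutation p = 0.135, adjusted p = 0.333). With 196 peaks taken from every library, the number in the smallest, the difference was 0.292 points (exact permutation p = 0.953).

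**Figure D2:**
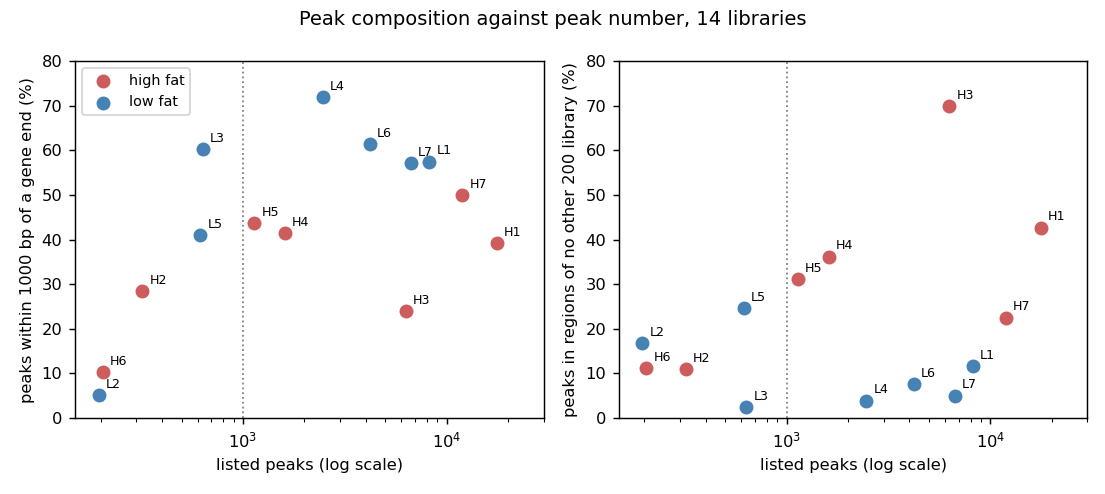
Share of peaks at gene ends (left, %) and share of peaks in regions of no other library (right, %) against the number of listed peaks on a log axis, 1 point per library (H high fat, L low fat). Right of the dotted line at 1000 peaks the low fat points lie above the high fat points on the left panel and below them on the right panel.

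The peaks that only 1 library listed seldom lay at gene ends, in both groups. In high fat replicate 3, 4397 of 6288 peaks were of this kind, 68.4% of them lay inside a gene and 10.8% at a gene end, and their median deposited −log10 p was 3.74. In high fat replicate 1 there were 7539, with 65.2% inside a gene and 18.0% at a gene end. In low fat replicate 7, with about as many peaks as high fat replicate 3, there were 336, with 63.7% inside a gene and 25.3% at a gene end. Among peaks in regions of at least 2 libraries, the share at gene ends was 54.4% to 58.2% in the 5 larger high fat libraries and 58.9% to 73.9% in the 4 larger low fat libraries. The difference was then −8.37 points (exact permutation p = 0.00794, two-sided, the smallest this design gives, adjusted p = 0.0238 over 6 added measures). This restriction was set with the data known, and the added measures were not among the 5 planned ones. Over all 14 libraries the same difference was −7.53 points (exact permutation p = 0.509), with low fat replicate 2 at 3.07% and high fat replicate 6 at 8.79%.

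The yield of genes per peak rests on the same gene-end peaks, so it is not independent of the share at gene ends. It followed the same order. Low fat replicate 7 had end peaks at 4164 protein-coding genes from 6691 peaks, while high fat replicate 3 had them at 1583 from 6288. Low fat replicate 4 reached 2049 genes from 2467 peaks, and high fat replicate 4 reached 775 from 1610. Per 100 peaks, the 5 larger high fat libraries had 25.2 to 52.5 such genes and the 4 larger low fat libraries 62.2 to 83.1, with no overlap (exact permutation p = 0.00794, adjusted p = 0.0238 over 6 added measures). Over all 14 libraries, with low fat replicates 2 and 5 at 6.63 and 45.9 and high fat replicate 6 at 9.76, the difference of −20.0 did not pass (exact permutation p = 0.0991, adjusted p = 0.372). The number of genes itself did not separate the groups, with 566 to 7082 in those high fat and 2049 to 5119 in those low fat libraries (exact permutation p = 0.865).

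The share of peaks inside a gene but away from its ends went the other way from gene ends. It was 36.6% ± 8.14 (SD, n = 5) in the larger high fat and 23.3% ± 5.87 (SD, n = 4) in the larger low fat libraries, a difference of 13.3 points (exact permutation p = 0.0159, adjusted p = 0.0317 over 6 added measures). Over all 14 libraries it was 8.70 points (exact permutation p = 0.146, adjusted p = 0.372). These shares add up with those at gene ends and outside both, so they are not independent of them. Peaks outside genes and peak width did not pass over all 14 libraries. The share of peaks outside genes averaged 49.5% ± 19.2 (SD, n = 7) in high fat and 47.5% ± 15.3 (SD, n = 7) in low fat (exact permutation p = 0.862). The median peak width was 442 to 567 bp in high fat and 488 to 577 bp in low fat libraries (difference of means −33.9 bp, exact permutation p = 0.113, adjusted p = 0.188). Without high fat replicate 7 the difference was −46.3 bp (exact permutation, adjusted p = 0.0452).

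Peaks of the 14 libraries that overlapped by at least 1 bp were joined, which gave 28566 regions, and each region was scored by the libraries that list it. Regions seen only in high fat numbered 17564, those only in low fat 2007, and 8995 were seen in both. Most regions on either side came from single libraries, 15623 (88.9%) of those only in high fat and 1910 (95.2%) of those only in low fat. Of the 17533 regions of 1 library, high fat replicate 1 gave 43.0%, replicate 3 gave 25.1% and replicate 7 gave 15.3%. Of the 11033 regions in at least 2 libraries, 1941 were only in high fat, 97 only in low fat and 8995 in both. Of the 1941, 1836 were in just 2 high fat libraries, and of the 97, 84 were in just 2 low fat libraries. The remaining 105 and 13 were among the 7465 regions in at least 3 libraries. High fat replicates 1 and 7 held 17652 and 11943 peaks, against at most 8221 in a low fat library. With the 196 strongest peaks of every library the shares only in high and only in low fat were 24.9% and 24.6% of 710 regions. A gene end lay near 57.7% of the regions seen in both groups, 18.8% of those only in high fat and 24.4% of those only in low fat.

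**Figure D3:**
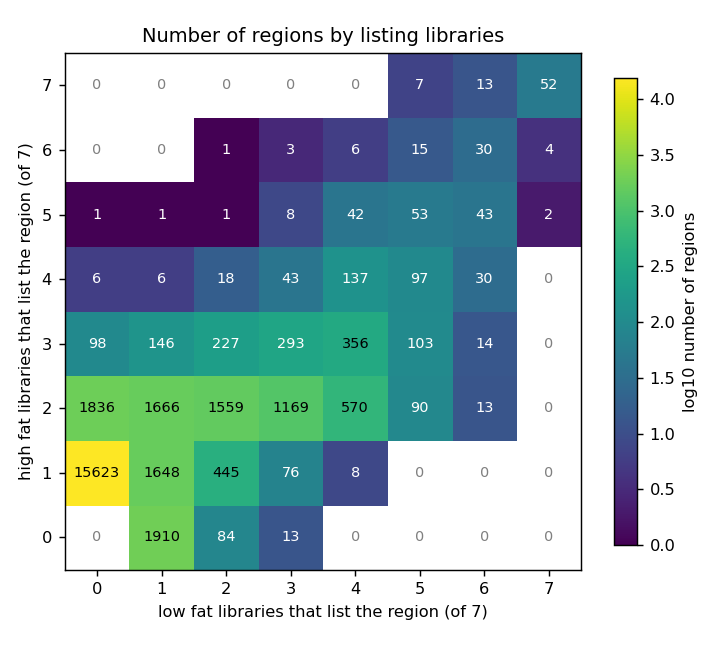
Number of regions by how many of the 7 low fat (horizontal) and 7 high fat libraries (vertical) list them, coloured by log10 of that number. The upper left corner holds 1 region at 5 high and 0 low fat libraries, the lower right corner is empty, and 52 regions are in all 14.

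No region passed the test between fat groups. Fisher's exact test (two-sided) was run on the 7465 regions listed in at least 3 libraries, and 0 of them (0% of those tested) had an adjusted p under 0.05. Without adjustment 1 region (0.0134%) had more high fat libraries at p under 0.05 and 0 (0%) had more low fat libraries. At 7 against 7 libraries the smallest p is 0.000583, so at least 88 regions listed by one whole group and by none of the other would have been needed. The exact permutation of presence left after a fit on log10 peak number also gave 0 regions past the adjusted threshold (smallest adjusted p 0.454). At an unadjusted p under 0.05 it gave 78 of the 7465 regions toward high fat and 700 of the 7465 toward low fat. The test of gene ends, over 5191 protein-coding genes with an end peak in at least 3 libraries, gave 0 (0%) in either direction with and without adjustment. At an unadjusted p under 0.05 the fit on log10 peak number gave 61 of the 5191 genes toward high and 627 toward low fat. Fisher's exact test on the 1000 strongest peaks of the larger libraries gave 0 and 33 of 995 genes. In both settings 0 genes passed the adjusted threshold.

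At the minimum of 3 libraries, more of the tested regions were in more low than high fat libraries, but the direction changed with the filter. As listed, 30.9% of the tested regions were in more high fat libraries, 40.6% in more low fat libraries and 28.5% in equal numbers. For gene ends it was 27.6% against 44.2%. After the fit on log10 peak number the splits were 31.1% against 68.2% for regions and 27.6% against 72.4% for gene ends. The high fat shares thus hardly moved, and the added low fat share is mostly that of regions and genes listed equally often, to which the fit gives a sign, so it is no evidence of direction. With no minimum of libraries 69.2% of regions were in more high and 17.6% in more low fat libraries. With a minimum of 5 libraries it was 11.3% and 72.3%. For peaks in the top decile of strength the regions split 33.8% against 13.6% and the gene ends 33.2% against 11.2%, in the same order. The listing itself followed few patterns. High fat replicates 1 and 7 both listed 89.4% of the tested regions. The commonest pattern, 1078 regions, joined replicates 1 and 7 of both groups, and the next, 875 regions, added low fat replicate 6. The other 5 high fat libraries together listed 27.3% of the tested regions, while the other 5 low fat libraries listed 56.5%. Low fat replicates 6 and 4 alone listed 48.4% and 29.9%, and high fat replicate 3 listed 18.6%. Regions of 5 libraries were in more low than high fat libraries in 1177 cases and the reverse in 234, whereas regions of 3 libraries leaned toward high fat in 1764 cases. Differences of at least 3 libraries were few: 1.57% of the tested regions had that many more high fat and 1.85% that many more low fat libraries.

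The leading regions toward low fat shared 1 pattern. There were 13 regions in 2 high and 6 low fat libraries, the smallest p in that direction (p = 0.103, Fisher's exact test, adjusted p = 1). In 12 of the 13 the 2 high fat libraries were replicates 1 and 7, and 12 lacked low fat replicate 2. The 10 of them named below, those with a gene symbol and the highest median −log10 p, were all listed in replicates 1 and 7 of high fat and in replicates 1, 3, 4, 5, 6 and 7 of low fat. High fat replicates 2 to 6 thus had none of them. High fat replicates 1 and 7 listed 95.6% and 93.0% of all tested regions. Choosing regions in 2 high fat libraries therefore largely fixed which high fat libraries lacked them. High fat replicates 3, 4 and 5 held more peaks than low fat replicates 3 and 5. After the fit on log10 peak number each of the 10 had a difference in listing share of −0.606 (exact permutation p = 0.00291, adjusted p = 0.454). The 10 were picked for their difference, so the unadjusted p is no test of them. The part of peak number was not tested beyond this fit.

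Metabolic genes were among them. A region 7 bp from an end of BCKDHB, a subunit of the enzyme complex that breaks down branched-chain keto acids, lay on chromosome 1 from 86017036 to 86018013 (Sscrofa11.1). Its deposited −log10 p was 8.31 and 7.39 in high fat replicates 1 and 7. In low fat it was 6.70, 4.09, 4.62, 4.21, 4.52 and 7.33 in replicates 1, 3, 4, 5, 6 and 7. The values of the 2 high fat libraries thus stood at or above the strongest low fat ones. These are also the high fat libraries with the most peaks. A region on chromosome 15 from 124567996 to 124569362 was 93 bp from an end of MOGAT1, an acyltransferase that makes diacylglycerol, and lay inside a transcribed pseudogene. It had 7.98 and 7.39 in those high fat libraries and 3.57 to 7.23 in the low fat ones.

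Genes of signalling, chromatin and other functions made up the rest. NFKBIZ, an atypical nuclear inhibitor of NF-kappa-B, had the strongest region (chromosome 13, 157271938 to 157273253, 507 bp from a gene end, inside the gene). It reached 8.31 in each of the high fat libraries and 7.07, 3.91, 5.17, 4.56, 6.08 and 8.16 in low fat replicates 1, 3, 4, 5, 6 and 7. The others at a gene end were CNKSR3, a signalling scaffold, 2 bp away, EEPD1, a factor of DNA repair, 57 bp away, and YAF2, a partner of Polycomb and YY1 proteins, 63 bp away. GTDC1 was 137 bp and ISOC1 193 bp away. The region inside ZNF672, a zinc finger gene, was 1094 bp from its end, and that inside NEMP2, a nuclear envelope gene, was 29199 bp from one. In the 600 libraries, another set of 14 with the same fat groups and replicate numbers, these 10 regions were listed by 2 or 3 of 7 high fat and 2 to 5 of 7 low fat libraries. The labels do not say whether both sets come from the same animals.

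**Figure D4:**
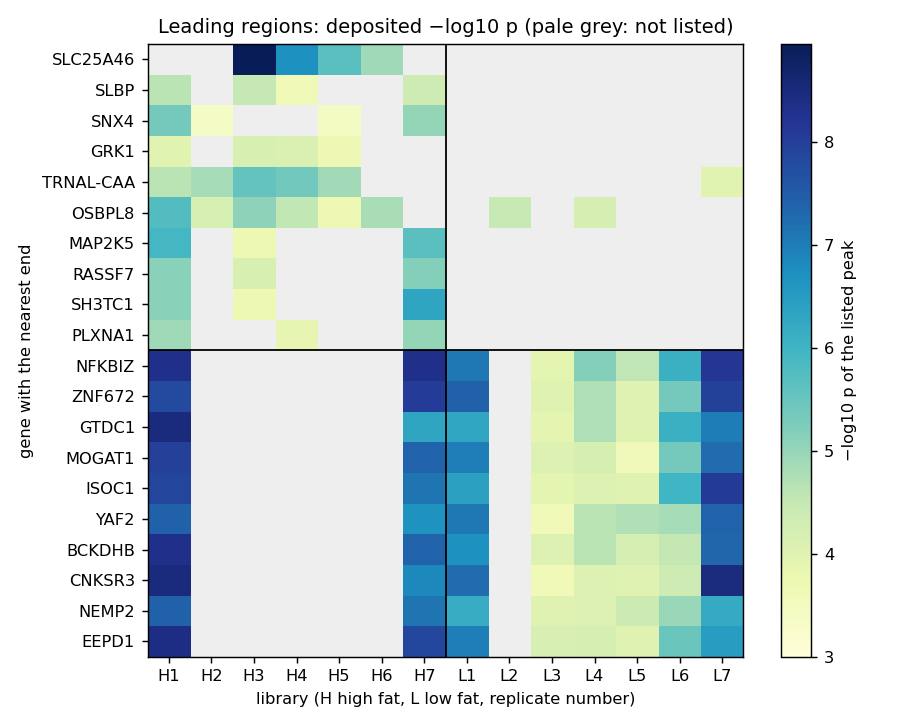
Deposited −log10 p (colour) of the 20 leading regions, named by the gene with the nearest end, in each library; pale grey marks a region that the library does not list. The lower 10 share one pattern of 8 libraries, while the upper 10 differ in which high fat libraries list them.

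Toward high fat, the single region with an unadjusted p under 0.05 lay on chromosome 5 from 39886199 to 39887730. It was listed in high fat replicates 1, 2, 3, 6 and 7 and in no low fat library (p = 0.0210, Fisher's exact test, adjusted p = 1). It was outside genes, 91893 bp from the nearest gene end, and no 600 library listed it. Its −log10 p was 3.37 to 4.62, near the lower end of what the lists hold.

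OSBPL8 and a leucine tRNA gene were the nearest genes of leading high fat regions that lay in the same stretch of chromosome 5, far from both. One (39811073 to 39812238) was in high fat replicates 1 to 6 and in low fat replicates 2 and 4, 66619 bp from OSBPL8, a lipid transfer protein of the endoplasmic reticulum. The other (40190414 to 40191899) was in high fat replicates 1 to 5 and low fat replicate 7, 103462 bp from the tRNA gene (TRNAL-CAA), and p was 0.103 for each (Fisher's exact test, adjusted p = 1). The stretch of 381 kb between them, looked at after these values were seen, held 105 regions, 40 of them in at least 3 libraries. Of the 40, 21 were in more high fat and 5 in more low fat libraries, 14 were in equal numbers, and those 14 were in all 14 libraries. Over all tested regions 30.9% were in more high and 40.6% in more low fat libraries. The regions at both ends of the stretch were picked for leaning toward high fat. They and the region of the preceding paragraph are among the 21, so the count is no test of the stretch. High fat libraries listed 20 to 62 regions there (median 36) and low fat libraries 19 to 36 (median 23), so the ranges overlapped. High fat replicate 1, with the most peaks of all, had the 62, and its share of peaks in the stretch was 0.510%, against 18.4% for low fat replicate 2.

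A region near SLC25A46, a mitochondrial outer membrane protein gene, was the strongest named region in 4 high fat libraries and none of low fat. It spanned 297 bp on chromosome 2 from 115563664 to 115563960, 8361 bp from the gene end and outside genes. Its −log10 p was 8.95, 6.71, 5.66 and 4.90 in high fat replicates 3, 4, 5 and 6 (p = 0.0699, Fisher's exact test, adjusted p = 1). High fat replicates 1 and 7, which listed 95.6% and 93.0% of the tested regions, did not list it. Looked at after that, it was the first of 6 regions within 9076 bp, of peaks with a median width of 261 bp. The other 5 regions were all listed by high fat replicates 1, 2, 5 and 7 and by 6 low fat libraries, all but replicate 2. High fat replicates 3, 4 and 6, which listed the first, listed 4, 2 and 1 of these 5, and high fat replicate 5 listed all. At the second of the 6 (115566331 to 115566832) the −log10 p was 11.8 and 10.8 in high fat replicates 1 and 7 and 4.59 in replicate 3. No 600 library listed the first region.

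The remaining leading high fat regions were mostly at gene ends. SLBP, which binds the stem-loop of histone mRNAs, had a region (chromosome 8, 818100 to 818817, 343 bp from the gene end) in high fat replicates 1, 3, 4 and 7. SNX4, a sorting nexin of endosomal recycling, had one (chromosome 13, 134823856 to 134824576, 180 bp from an end) in replicates 1, 2, 5 and 7. One inside GRK1, the rhodopsin kinase gene, was in replicates 1, 3, 4 and 5 and lay 3741 bp from an end. Each of these 3 had p = 0.0699 (Fisher's exact test, adjusted p = 1) and −log10 p values from 3.37 to 5.35. MAP2K5, a MAP kinase kinase, RASSF7 and SH3TC1 had end regions in high fat replicates 1, 3 and 7, and PLXNA1, a semaphorin receptor, had one in replicates 1, 4 and 7 (p = 0.192 each, Fisher's exact test, adjusted p = 1). Of the 10 leading high fat regions, 2 were listed by a 600 library, RASSF7 and SH3TC1, in 1 low fat library each. All 10 leading low fat regions were listed there.

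HINT3, a nucleotide hydrolase gene, was listed in 7 high and 6 low fat libraries and was the only gene in 13 libraries. Of the 21 genes in at least 12 libraries, the others named by the rule were each in 6 and 6. They were HSF2, a heat shock transcription factor, TLE4 and ZBTB20, repressors of transcription, UBP1, HSPA13, UBXN4 and the mitochondrial chaperone HSPD1. LEPROT, the leptin receptor overlapping transcript, was also in 6 and 6. Regions in all 14 libraries, 52 of them, were of another kind, since 0 lay at a gene end and 6 inside a gene. The strongest, on chromosome 4 from 53952864 to 53954373, had −log10 p values of 138.7 to 644.5. The next 2, on chromosome X from 22068629 to 22069621 and on chromosome 9 from 4699949 to 4702265, had medians of 133.6 and 100.1. Others of the 8 strongest lay inside SPOCK3 (median 20.2) and PDE4D (median 10.5), and outside genes nearest to DOCK10 (median 35.4) and PIGG (median 11.7). All 8 were listed by the 14 libraries of the 600 set too. Of the 52, 14 lay within 277 kb in the stretch of chromosome 5 described above and 8 within 116 kb on chromosome 9.

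Genes of fat synthesis were listed in few libraries of either group, and none differed. The background is all protein-coding genes, of which 46.1% had an end peak in at least 1 library and 27.6% and 44.2% of those tested were in more high and more low fat libraries. Of all 19484 protein-coding genes 8553 had an end peak in high fat and 6217 in low fat, 2767 only in high and 431 only in low fat. Of the tested genes, 1.68% had at least 3 more high fat and 2.06% at least 3 more low fat libraries. In de novo lipogenesis 12 of 16 members had an end peak, 11 in high fat and 9 in low fat. Of the 7 tested, 4 were in more high and 2 in more low fat libraries (median difference 1, over all genes tested 0). INSIG1, which holds back SREBP activation, was in 4 and 3, THRSP in 3 and 3, ACLY, which makes cytosolic acetyl-CoA, in 2 and 3, and SCD, the stearoyl-CoA desaturase, in 2 and 0. FASN, ACACB, ME1 and PNPLA3 had none. Triglyceride and lipid droplet genes had 9 of 16, 9 in high and 4 in low fat. DGAT1, which makes triglyceride from diacylglycerol, was in 3 high and 0 low fat libraries (p = 0.192, Fisher's exact test), ABHD5, a lipase cofactor, in 3 and 2, and the droplet coat gene PLIN2 in 2 and 3.

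**Figure D5:**
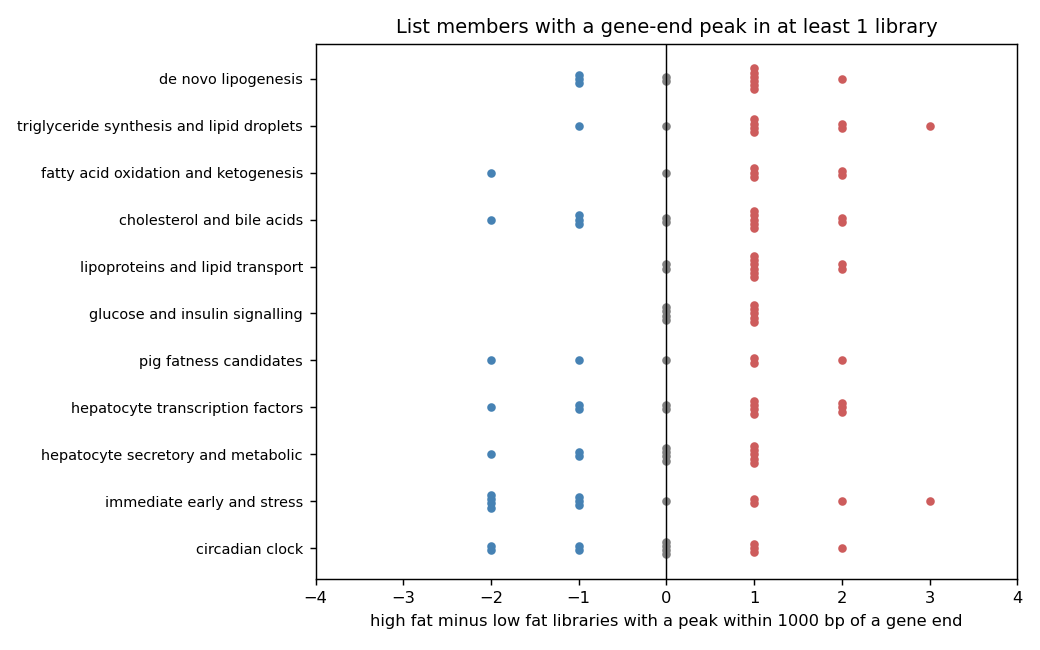
Difference in number of libraries with a gene-end peak, high minus low fat, for each member of 11 gene lists that had such a peak in at least 1 of the 14 libraries; each point is 1 gene. The values run from −2 to 3, DGAT1 and JUN are at 3, and none passed the test.

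Genes that burn fat, make sterols and carry lipids gave like small differences. Fatty acid oxidation had 7 of 16 members with an end peak, and of 5 tested 3 were in more high and 1 in more low fat libraries. CPT2, of the carnitine shuttle, was in 3 and 1, ACADM, the medium-chain dehydrogenase, in 3 and 3 and PDK4, which spares glucose, in 2 and 4. Cholesterol and bile acid genes had 13 of 16, with 3 of 9 tested toward high and 4 toward low fat. HMGCS1 was in 4 and 5, SQLE in 2 and 4 and FDFT1 in 4 and 4. The paired transporter genes ABCG5 and ABCG8 were in 2 and 0 each. Lipoprotein genes had 10 of 18, and of 4 tested 3 were toward high fat and 0 toward low fat. APOA1 and MTTP, which loads lipid onto lipoproteins, were in 2 and 0 each, while APOB, APOE and APOA2 had none.

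Glucose and fatness genes showed no member with a difference above 2 libraries. Glucose and insulin signalling had 9 of 15 members listed, and of 6 tested 2 were toward high fat and 4 were equal, such as FBP1 in 3 and 3 and IRS2 in 2 and 2. Among pig fatness candidates 6 of 15 were listed. ADIPOR1, an adiponectin receptor, was in 5 and 6, ADIPOR2 in 3 and 2 and SIRT1, a deacetylase, in 2 and 4. IGF2 was in 2 and 0, too few libraries to be tested. LEP, LEPR, MC4R, PPARG and ADIPOQ had none in any of the 14 libraries.

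Hepatocyte genes were listed in both groups. Of the hepatocyte transcription factors 12 of 15 had an end peak, and of 6 tested 3 were toward high and 2 toward low fat. Of the secretory and metabolic genes 12 of 16 had one, and of 7 tested 2 were toward high and 3 toward low fat. CEBPA was in 3 and 1, ESRRA in 2 and 4, ALB, the albumin gene, in 2 and 1 and HPX in 2 and 4. HNF4A had none. Markers of other liver cells were nearly absent. Kupffer and macrophage genes had 3 of 12 (CD14 in 2 and 2), lymphocyte genes 3 of 11, all in 1 high fat library each, erythroid genes 1 of 7 (GATA1 in 2 and 0). Endothelial and stellate markers had 0 of 12 and cholangiocyte markers 0 of 6. An unlisted marker does not show that the cells were absent.

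Immediate early, stress and clock genes were listed in most libraries with many peaks. Of the immediate early and stress list 12 of 15 had an end peak, and of 11 tested 3 were toward high and 7 toward low fat (median difference −1). JUN was in 4 high and 1 low fat libraries, the largest difference of the list, DNAJB1, a heat shock co-chaperone, in 6 and 4 and HSPA8 in 6 and 5. DUSP1, IER2, HSPA5 and HSPH1 were each in 2 and 4. Such genes are known to respond to handling of tissue. Clock genes had 12 of 14, with 3 of 11 toward high and 4 toward low fat. ARNTL, the core activator, was in 4 and 5, NR1D2 in 4 and 4, and CRY2 and NFIL3 in 2 and 4 each. Genes at 2 and 4 follow the common pattern of high fat replicates 1 and 7 and larger low fat libraries, so the number of peaks in a library moves with these counts, and its part in them was not tested.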

How the data were processed

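Liver ATAC-seq peak lists of 7 high and 7 low fat libraries were analysed. Per the submitters' processing notes FastQC, BWA, SAMtools, Picard and Genrich were used on Sscrofa11.1; their roles and versions are not given in the sources used here. The authors deposited, for each peak, a −log10 p (2.95 to 644.5), a signal (at least 400.006) and a score, which equals 1000 times the signal divided by the width and is held at 1000 or less in 99.9984% of peaks. The deposited table holds no counts, so depth, and the precision it gives, is unknown. Starts are printed counted from 1.

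Peaks overlapping by at least 1 bp were joined into regions. Regions, and ends of 19484 protein-coding genes of the RefSeq table of 28073 genes (window 1000 bp), were kept if 3 or more libraries listed them. The number of listing libraries per group was compared by Fisher's exact test, two-sided, with Benjamini-Hochberg adjustment at 0.05. Library measures used the exact permutation test over 3432 divisions, adjusted over 5 measures. Scipy 1.17.1, pandas 2.3.3 and Python 3.11.15 were used, and Fisher's exact test was tried on simulated data. There, apart from planted group differences, every library listed a region with the same probability. The simulation therefore does not cover the differences in peak number between these libraries. Named regions were, per direction, the 10 with the smallest p nearest to a gene with a symbol, ties taken by median −log10 p; the 8 strongest in all 14 libraries; the genes in most libraries; and the list members that differed most. The members and the 16 gene lists (220 members, all matched) were chosen with earlier results of these data known. Alternatives are given in the closing section.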

Additional observations from a re-analysis of the deposited data

Results flagged for a closer look

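In low fat replicate 2, 80.1% of the 196 listed peaks lay outside genes, far from the other 6 low fat libraries at 34.4% to 48.3%. Its distance to the next library was 0.694 of the group's range. Chance flags about 1 in 20 groups, and 14 groups and measures were checked. High fat replicate 6, with 205 peaks, had a like share of 84.4%. The part that the low number of peaks plays was not tested.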

How the results depend on the processing

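No region and no gene end passed the adjusted threshold under any alternative run. With 5 against 4 libraries, or with same-numbered pairs, the smallest possible p is larger than at 7 against 7. Regions and gene ends could hardly pass there, so those runs show little. Among libraries with at least 1000 peaks, the gene-end difference was −22.4 points and the single-library difference 33.7 points with regions rebuilt (exact permutation, adjusted p = 0.0397 each), the log10 peak number difference −0.0122 and the share outside genes −0.233 points. With peaks of at least 2 libraries in those libraries the gene-end difference was −8.37 points. Leaving out 1 of 14 libraries gave −24.4 to −12.9 points for gene ends, 16.1 to 25.2 for single-library peaks, −46.3 to −25.4 bp for width, −0.0771 to 0.247 for log10 peak number and −3.78 to 7.47 points outside genes. Leaving out 1 of the 9 larger libraries gave −24.9 to −18.4, 27.5 to 38.3, −65.1 to −30.6 bp, −0.155 to 0.143 and −1.91 to 1.66. Within these, log10 peak number was −0.0425 and −0.112 without high fat replicates 3 and 7 and −0.111 and −0.0339 without low fat replicates 4 and 6. The share outside genes was −1.65 points without high fat replicate 4, and −1.13 and −1.87 without low fat replicates 1 and 7. Without low fat replicate 1 the gene-end difference was −23.9 and the single-library difference 36.3 points. The shares of regions only in high fat, only in low fat and in both were 46.4%, 5.38% and 48.3% with peaks above the median strength, 52.2%, 1.86% and 45.9% in the top decile, 24.9%, 24.6% and 50.4% with equal numbers, and 48.8%, 13.6% and 37.5% with 1000 strongest peaks. Libraries with at least 1000 peaks gave 62.1% and 6.41% in only high and only low fat, and a 50% overlap gave 30.9% in both. Leaving out a library gave 47.7% to 70.4%, 3.79% to 15.2% and 25.9% to 37.1%. The NEMP2 region turned to a difference in listing share of 0.143 toward high fat in the top decile; the cause was not tested. Same-numbered libraries correlated at over 0.1 in 3 of 7 pairs, so the numbers were not taken as pairing. With a replicate block (exact sign flips), the single-library share had an adjusted p of 0.117 and the gene-end share 0.234. For regions the block was an exact sign test over the 7 pairs, and 0 passed, which that test could hardly give otherwise. The 1000-peak limit, the restriction to peaks of at least 2 libraries and the stretches of chromosomes 2 and 5 were chosen after seeing the data. The 6 added measures were not planned either. Depth is unknown, so an unlisted region cannot be called closed.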
